A study of Mus musculus with 6 samples.

Results

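The adrenomedullin and apelin peptide receptor systems were followed through 7 genes in kidney endothelial cells: the ligand Adm, its receptor Calcrl with the partner proteins Ramp1, Ramp2 and Ramp3, and the ligand Apln with its receptor Aplnr. They were chosen by gene symbol alone, and all 7 were found among the 55487 genes of the deposited table and passed the filter of a mean of at least 1 FPKM (fragments scaled to exon length and library total), which 14962 genes passed. The mice were 3 wild-type littermates, called control here, and 3 that carried a VE-cadherin Cre and an I-PpoI gene behind a Cre-removable STOP, called I-PpoI. The Rosa locus of that gene is written as ROSA26, ROSA27 and ROSA28 in the labels of I-PpoI mice 1 to 3. I-PpoI is a homing endonuclease that cuts DNA, and the VE-cadherin (Cdh5) promoter is active in endothelium. From 8 weeks of age, all 6 mice received food with 60% of kcal as fat for 4 weeks. Kidneys were dissociated with collagenase and CD31 (Pecam1) positive cells were pulled out magnetically, so the preparations are enriched and not pure. The labels describe 6 separate mice and give them 1 batch number. The series asks how endothelial DNA damage relates to endothelin signalling, and adrenomedullin and apelin are peptides that act on the same vessels.

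Adrenomedullin is a vasodilating peptide that endothelial cells both make and sense. Its receptor is a complex: the G-protein-coupled protein Calcrl reaches the cell surface and binds adrenomedullin when paired with Ramp2 or Ramp3, and binds the neuropeptide CGRP when paired with Ramp1. The complex couples mainly to Gs and raises cyclic AMP, which tightens endothelial junctions. Apelin acts on a separate receptor, Aplnr, that couples to Gi and recruits beta-arrestin; in growing vessels apelin is a marker of tip cells, and Apela is a further peptide of the same receptor.

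Promoters are shown for a pair of Ramps of very different level and for both ligands, since these pairs recur in the values that follow. RefSeq (GRCm38.p6) held promoters of 5 of the 7 genes, and each stretch below is the 250 bases before the RefSeq start, 5′ to 3′ on the gene's strand. Ramp3 lies at chr11:6658283-6658532 on the plus strand and Ramp1 at chr1:91179572-91179821 on the plus strand. Capitals in this pair mark CCGGAA, the core read by ETS factors, on either strand.
Ramp3: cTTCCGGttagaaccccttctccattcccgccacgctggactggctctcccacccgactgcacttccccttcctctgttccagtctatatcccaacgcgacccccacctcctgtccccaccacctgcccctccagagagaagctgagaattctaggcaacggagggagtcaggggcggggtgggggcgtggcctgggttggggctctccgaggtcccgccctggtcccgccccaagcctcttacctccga
Ramp1: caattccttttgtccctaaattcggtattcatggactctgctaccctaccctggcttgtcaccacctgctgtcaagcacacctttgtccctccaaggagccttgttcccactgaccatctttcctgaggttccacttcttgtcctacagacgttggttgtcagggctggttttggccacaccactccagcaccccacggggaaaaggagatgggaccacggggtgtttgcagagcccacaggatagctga
Ramp3, the abundant member of this pair, held 1 match and Ramp1 held 0. Of 27025 promoters, 12.2% held at least 1. Adm lies at chr7:110627407-110627656 on the plus strand and Apln at chrX:48034854-48035103 on the minus strand. Capitals here mark the hypoxia response core, ACGTG or GCGTG, on either strand.
Adm: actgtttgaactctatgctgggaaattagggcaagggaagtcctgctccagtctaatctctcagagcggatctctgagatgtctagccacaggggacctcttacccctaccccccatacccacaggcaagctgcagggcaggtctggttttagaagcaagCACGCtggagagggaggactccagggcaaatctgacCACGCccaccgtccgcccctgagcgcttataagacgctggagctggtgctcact
Apln: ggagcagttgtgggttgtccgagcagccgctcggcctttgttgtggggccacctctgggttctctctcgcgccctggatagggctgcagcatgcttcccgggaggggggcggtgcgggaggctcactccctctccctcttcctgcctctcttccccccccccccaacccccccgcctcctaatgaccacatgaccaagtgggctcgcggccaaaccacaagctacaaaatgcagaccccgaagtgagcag
Adm held 2 matches and Apln 0, and of the pair printed first Ramp3 held 2 and Ramp1 0, not marked there. At least 1 match stood in 38.6% of promoters and at least 2 in 16.8%. No capital letters of one motif overlapped the other motif. A match describes the letters only, and its absence says that these letters are not in this window.

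The libraries differed in the number of fragments listed on genes and in strand, and this touches every comparison between the groups. How many fragments were sequenced is not given. Whole fragments recovered from FPKM numbered 14081222 to 16954480 in the controls, 1590957 and 834149 in I-PpoI mice 1 and 2 respectively, and 13324303 in I-PpoI mouse 3. In I-PpoI mice 1 and 2, genes annotated as antisense held 14.7% and 10.02% of fragments. The other 4 libraries had at most 0.225% there. Most mitochondrial fragments of I-PpoI mice 1 and 2 (68.2% and 70.6%) also lay on minus-strand genes, against at most 0.0821% in the other 4 libraries. Values of I-PpoI mice 1 and 2 may therefore hold only part of a gene's own transcripts, and results are also given for I-PpoI mouse 3 alone. The summed FPKM of 23 endothelial markers was 4758 to 5392 in the controls and 3565, 1341 and 2235 in I-PpoI mice 1 to 3. Proximal tubule markers summed to 916 to 1700 FPKM in the controls and to 419, 578 and 1681 in I-PpoI mice 1 to 3; in I-PpoI mouse 3, 9 of the 12 stood above every control and 2 below. Mural and fibroblast markers (829 to 1199 in the controls, 512 to 564 in the I-PpoI mice), podocyte markers (724 to 1502, then 177 to 503, with Podxl also on the endothelial list) and lymphatic markers (36.1 to 39.4, then 15.8 to 30.4) summed lower in every I-PpoI library. Leukocyte markers summed to 32.0 to 218 FPKM in the controls and to 90.2, 250 and 225 in I-PpoI mice 1 to 3. No marker of these lists was at 0 in all controls, and 48.2% of fragments of I-PpoI mouse 3 were mitochondrial, against 8.83 to 18.3% in the controls. The Y-linked gene Ddx3y had 959 to 1672 fragments in the controls and 20, 0 and 0 in I-PpoI mice 1 to 3, while the X-inactivation transcript Xist had at most 4 in the controls and 0, 70 and 4739 in I-PpoI mice 1 to 3. The part of these differences in the results below was not tested.

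In the control mice the adrenomedullin receptor genes were abundant and both ligands were scarce. Calcrl averaged 117 FPKM ± 9.16 (SD, n = 3), Ramp2 88.1 ± 17.6 and Ramp3 68.4 ± 36.5. Adm followed at 5.76 FPKM ± 2.09, Aplnr at 2.46 ± 0.669, Ramp1 at 2.24 ± 0.613 and Apln at 1.88 ± 0.856. FPKM is per exon length, so these levels can be set side by side. Calcrl was above Ramp2 in 2 of 3 control mice, and Ramp2 above Ramp3 in 2 of 3, so the order of these 3 genes is not fixed by their spread. Ramp3 stood above Adm, and Adm above Aplnr, in every control mouse. Aplnr, Ramp1 and Apln had overlapping ranges. The exon model of Ramp2 shares 1103 of its 3301 bases with Vps25, a neighbour on the same strand that sorts cargo to endosomes. If no fragment of the shared exons was counted for Ramp2, its control mean over its own 2198 bases would be 132 FPKM, which is above Calcrl. If the shared exons were counted for Ramp2, its value may hold fragments of Vps25 and stand too high. How the authors' counting treated shared exons is not given, and Vps25 itself was listed at no more than 0.503 FPKM in any library.

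Calcrl, the receptor protein itself (chr2:84330626-84425411, minus strand), had the largest log2(FPKM + 1) difference between the groups of the 7 genes as deposited. Its FPKM was 124, 106 and 119 in control mice 1 to 3, and 17.0, 9.05 and 56.4 in I-PpoI mice 1 to 3. Every I-PpoI mouse lay below every control, and I-PpoI mouse 3 lay between the controls and its group. The values of I-PpoI mice 1 and 2 rest on 133 and 37 fragments, with 95% exact Poisson intervals of 14.2 to 20.1 and 6.37 to 12.5 FPKM that cover counting error only. The limma difference was -2.43 (SE 0.65) on the log2(FPKM + 1) scale, with an adjusted p of 0.132. It turned to 0.23 when each library was scaled by its endothelial markers and I-PpoI mice 1 and 2 were left out. Only 0.327% of tested genes had a lower log2 difference. With 0.1 added to FPKM in place of 1, the difference of Aplnr (-3.10) was larger than that of Calcrl (-2.50).

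Ramp2, the partner that makes Calcrl an adrenomedullin receptor in vessels (chr11:101246028-101259546, plus strand), stood at 80.0, 108 and 75.9 FPKM in control mice 1 to 3. Its values were 66.5, 30.4 and 39.9 FPKM in I-PpoI mice 1 to 3. The groups did not overlap, though I-PpoI mouse 1 came close to control mouse 3. For Ramp2 limma gave a difference of -0.99 (SE 0.39, adjusted p = 0.135), and it changed sign to 0.42 with endothelial scaling and to 0.15 among strand-clear genes with median-of-ratios scaling. A gene counts as strand-clear here if it is nuclear, codes for a protein and has no exon within 5 kb of a gene read from the other strand.

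Ramp3, the other adrenomedullin partner (chr11:6658521-6677475, plus strand), varied most among the controls. Its FPKM was 48.0, 111 and 46.6 in control mice 1 to 3, and 23.9, 8.65 and 27.6 in I-PpoI mice 1 to 3. Control mouse 2 stood far above the other 2 controls, and all I-PpoI mice lay below the lowest control. The limma difference was -1.75 (SE 0.57, adjusted p = 0.132), lower than for all but 3.94% of tested genes, and it turned to 0.09 with endothelial scaling without I-PpoI mice 1 and 2.

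Ramp3 also has a neighbour across from it. Gm11978, a transcribed pseudogene on the opposite strand (chr11:6650148-6660233), shares 101 exon bases with Ramp3 and spans the promoter printed above. Gm11978 stood at 0.132, 0.555 and 0.167 FPKM in control mice 1 to 3. In I-PpoI mice 1 to 3 its level was 45.1, 28.8 and 0.0533 FPKM. The pseudogene was thus above Ramp3 in the same libraries in which minus-strand mitochondrial fragments were in excess, and far below Ramp3 in the other 4. Whether fragments of Ramp3 are among those listed under Gm11978 was not tested.

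**Figure D1:**
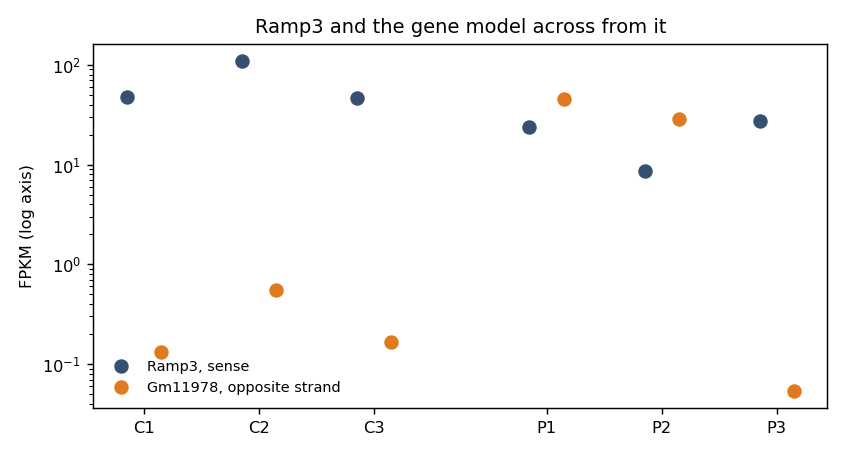
FPKM on a log axis of Ramp3 (dark points) and of the opposite-strand pseudogene Gm11978 (orange points) in control mice 1 to 3 (C1 to C3) and I-PpoI mice 1 to 3 (P1 to P3). Gm11978 stood above Ramp3 in I-PpoI mice 1 and 2, at 45.1 and 28.8 FPKM, and below 1 FPKM in the other 4 libraries.

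Ramp1, the partner for CGRP (chr1:91179822-91225196, plus strand), was low throughout. Its FPKM was 2.25, 2.85 and 1.62 in control mice 1 to 3, and 0.619, 0 and 1.32 in I-PpoI mice 1 to 3. The I-PpoI mice lay below the controls, yet the value of I-PpoI mouse 2 is a count of 0 that allows up to 1.18 FPKM, counting 3 fragments as the limit. With limma the difference was -1.04 (SE 0.41, adjusted p = 0.135), and 0.39 with endothelial scaling without I-PpoI mice 1 and 2.

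Adm, the ligand (chr7:110627661-110629820, plus strand), had 8.03, 5.35 and 3.90 FPKM in control mice 1 to 3 and 3.47, 2.95 and 2.55 in I-PpoI mice 1 to 3. The controls spread widely, and the lowest control lay close to the highest I-PpoI mouse without overlap. Only 9 and 4 fragments stand behind the values of I-PpoI mice 1 and 2, with intervals of 1.58 to 6.58 and 0.803 to 7.55 FPKM that reach into the control range. By limma Adm differed by -0.72 (SE 0.35, adjusted p = 0.148), close to the median of all tested genes (-0.65), and it turned to 0.47 with endothelial scaling.

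Apln, the apelin precursor (chrX:48025146-48034853, minus strand), had 1.32, 2.87 and 1.46 FPKM in control mice 1 to 3 and 0.594, 0.379 and 2.07 in I-PpoI mice 1 to 3. The groups overlapped, with I-PpoI mouse 3 between the middle and the highest control. I-PpoI mice 1 and 2 gave 3 and 1 fragments, too few to set them apart from the controls: their intervals reach 1.74 and 2.11 FPKM. The limma difference was -0.57 (SE 0.43, adjusted p = 0.308), 0.22 with endothelial scaling and 0.00055 among strand-clear genes with median-of-ratios scaling. Apln lies on the X chromosome, and the libraries of the groups differ in sex-linked transcripts.

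Aplnr, the apelin receptor (chr2:85136225-85139923, plus strand), had 1.69, 2.80 and 2.89 FPKM in control mice 1 to 3. It was at 0, 0 and 2.37 FPKM in I-PpoI mice 1 to 3. I-PpoI mouse 3 lay inside the control range. The counts of 0 in I-PpoI mice 1 and 2 allow up to 0.506 and 0.968 FPKM, counting 3 fragments as the limit. Their exact Poisson intervals reach 0.622 and 1.19 FPKM. These bounds lie below the lowest control but cover counting error only. Values of these mice may hold only part of a gene's own transcripts, so the counts of 0 cannot show a lower Aplnr level. For Aplnr limma gave -1.19 (SE 0.55, adjusted p = 0.142), and 0.99 with endothelial scaling without I-PpoI mice 1 and 2. In these bulk samples fewer cells of a type and less RNA per cell cannot be told apart.

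**Figure D2:**
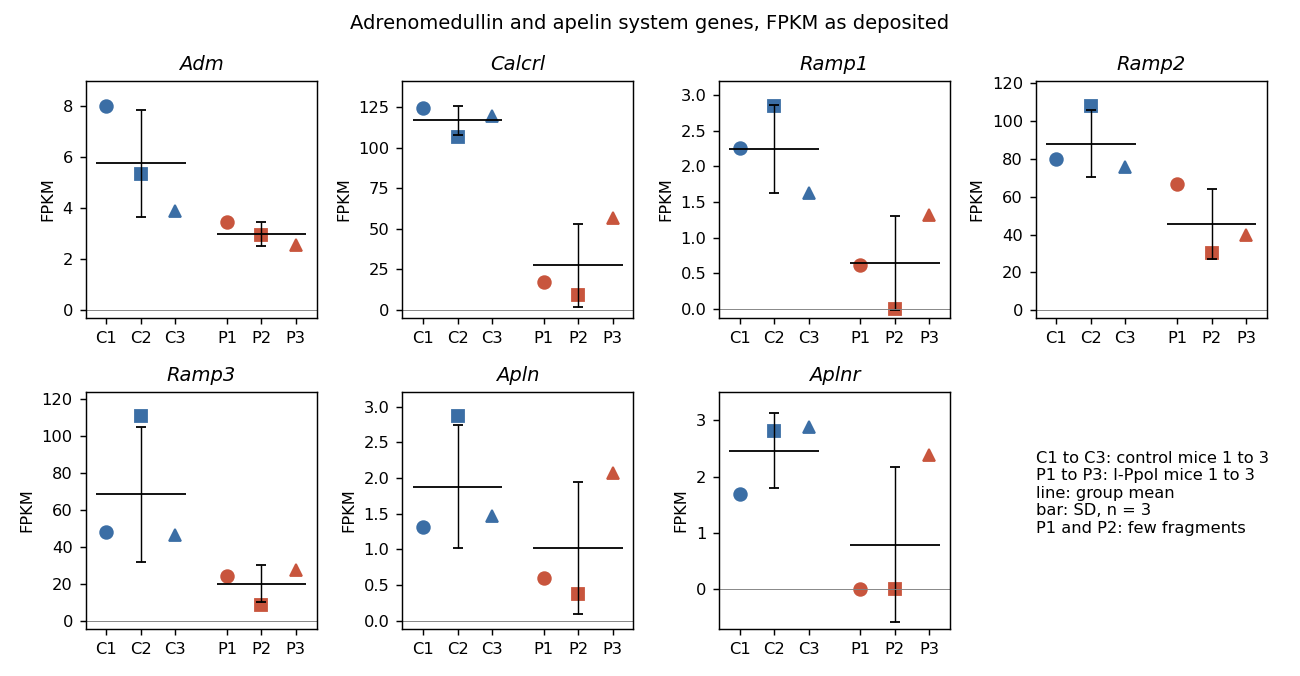
FPKM as deposited of the 7 genes in control mice 1 to 3 (C1 to C3, blue) and I-PpoI mice 1 to 3 (P1 to P3, red), with each group's mean as a line and its SD as a bar (n = 3). Calcrl, Ramp1, Ramp2, Ramp3 and Adm are lower in the I-PpoI mice without overlap as deposited, as are 45.1% of all tested genes. With endothelial scaling and without I-PpoI mice 1 and 2, 0 of the 7 differences and 8.49% of all tested genes lie below 0.

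Across the 7 genes, 5 had groups that did not overlap with the I-PpoI mice lower, beside 45.1% of all tested genes, and 0 the other way, beside 2.24%. At an unadjusted limma p under 0.05, 4 of 7 were lower (Calcrl, Ramp3, Ramp1 and Ramp2), beside 32.2% of tested genes lower and 4.23% higher; with the replicate number as a block 1 of 7 was. After Benjamini-Hochberg adjustment limma called 0 of the 7 and 0% of all tested genes. The median log2 difference of the 7 genes was -1.04, and that of all tested genes was -0.65. Scaling moved the median of all tested genes: it was 0.02 with median-of-ratios scaling, 0.52 with endothelial scaling and -1.71 after rescaling to a common total. The median of the 7 genes moved with it, to -0.68, -0.37 and -2.08, and stayed below that of all genes under each of these 3 scalings. A scaling divides all genes of a library by the same factor, so these are not 3 separate checks.

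Without I-PpoI mouse 3, limma called 4 of the 7 genes lower at an adjusted p under 0.05 (Calcrl, Ramp1, Ramp3 and Aplnr), beside 36.1% of all genes tested lower and 19.9% higher. After rescaling to a common total it called 2 of the 7 lower (Calcrl and Ramp3), beside 22.4% of genes lower and 4.1% higher. With I-PpoI mouse 3 as the only I-PpoI library, whose spread is taken to be that of the controls, it called 0 of the 7, with 0.0154% of genes lower and 0.131% higher. In that fit 6 of the 7 log2 differences lay below 0, beside 90.4% of all genes tested, and Apln was at 0.13. As deposited, that mouse lay below all 3 controls for Adm, Calcrl, Ramp1, Ramp2 and Ramp3, as it did for 70.7% of tested genes.

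I-PpoI mouse 3 is the only I-PpoI library with many recovered fragments and with fragments on the annotated strand. Its values were also scaled by the endothelial markers. Scaled Calcrl was 129, 96.0 and 127 FPKM in control mice 1 to 3 and 137 in I-PpoI mouse 3, above each of them. Scaled Ramp2 was 96.9 FPKM in that mouse, within the controls at 80.7 to 97.7, and scaled Ramp3 was 67.1, within 49.5 to 99.8. Scaled Adm, at 6.19 FPKM, also lay within the controls at 4.15 to 8.37. The adrenomedullin genes with a control mean over 5 FPKM thus stood at 1.01 to 1.17 times their control means in this mouse.

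The apelin genes stood higher in I-PpoI mouse 3 on the same scale. Scaled Apln was 1.37, 2.59 and 1.55 FPKM in control mice 1 to 3 and 5.04 in I-PpoI mouse 3, which is 2.74 times the control mean. Scaled Aplnr was 1.76, 2.53 and 3.07 FPKM in the controls and 5.77 in I-PpoI mouse 3, or 2.35 times their mean. Ramp1, at 3.20 against 1.72 to 2.57 FPKM, was 1.44 times its control mean. These places are to be read against all genes, since 68% of tested genes lay above every control in I-PpoI mouse 3 on this scale and 4.28% lay below. The median ratio over 14365 tested genes above 0 in the controls was 1.41. Apln and Aplnr exceeded the ratio of 91.6% and 89.1% of them, whereas Calcrl, Ramp2, Adm and Ramp3 exceeded that of 14.2 to 24.0%. A single library gives no replicate of its own: the limma differences on this scale, 1.11 for Apln and 0.99 for Aplnr, had adjusted p of 0.198 and 0.234, and 2.49% of genes passed as higher and 0.0537% as lower. As deposited, 9 of 12 proximal tubule markers stood above every control in that mouse, and their part in the apelin values was not tested.

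**Figure D3:**
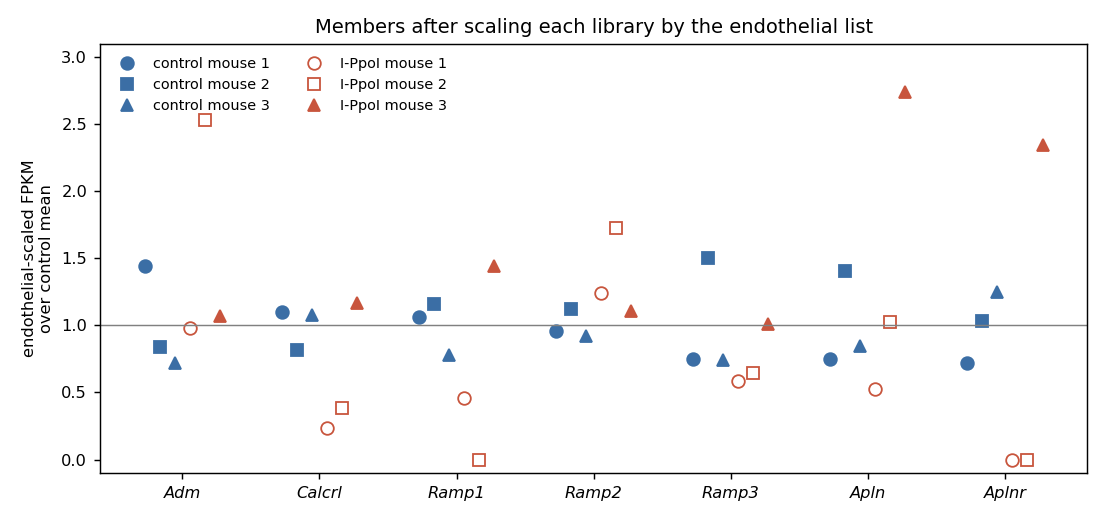
Each library's FPKM after division by its endothelial marker level, over the control mean of the gene. The 3 control mice are blue and the 3 I-PpoI mice red, with open marks for mice 1 and 2, which have few recovered fragments. In I-PpoI mouse 3 (filled triangles), Apln and Aplnr stand at 2.74 and 2.35, while Adm, Calcrl, Ramp2 and Ramp3 stand at 1.01 to 1.17.

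Over all 6 libraries the members were also set against the endothelial markers, in a design in which 3 against 3 mice cannot give p under 0.10. The difference of each gene's log2(FPKM + 1) from the median of the endothelial list, I-PpoI minus control, was -0.996 for Calcrl, -0.31 for Ramp3, 0.44 for Ramp2 and 0.39 for Ramp1. It was 0.71 for Adm, 0.86 for Apln and 0.25 for Aplnr. Ramp2 alone had groups that did not overlap, with -0.70, -0.20 and -0.85 in I-PpoI mice 1 to 3 above -1.13 to -0.86 in the controls. The margin was narrow, and with endothelial scaling only 24.98% of all tested genes had a limma difference below 0. Exact two-sided permutation p-values ran from 0.10 for Ramp2 to 0.80 for Aplnr, and from 0.56 to 0.80 after adjustment over the 7 genes. The Calcrl value is 0.25 in I-PpoI mouse 3 alone, and the Ramp3 value is 0.12 there, so the negative values of both come from I-PpoI mice 1 and 2. Without control mouse 2 the Ramp3 value was 0.015. Against only the 10 strand-clear endothelial markers, exact permutation p was 0.20 for Ramp2 and 0.10 for Ramp1 and for Apln. Ramp3 stood at -0.0032 there, so which gene stands apart depends on the markers used.

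The make-up of the receptor partners was read within each library, which needs no scaling between libraries. Such shares and ratios can still carry the strand difference of I-PpoI mice 1 and 2, and Ramp3 has Gm11978 across from it. Ramp2 made up 61.4, 48.8 and 61.2% of the summed Ramp FPKM in control mice 1 to 3, and 73.0, 77.8 and 57.9% in I-PpoI mice 1 to 3. Ramp3 made up 36.9, 49.9 and 37.5% in the controls and 26.3, 22.2 and 40.1% in the I-PpoI mice. If no fragment of the exons shared with Vps25 was counted for Ramp2, its control shares would be 70.5, 58.9 and 70.3%. Its shares in I-PpoI mice 1 to 3 would then be 80.3, 84.1 and 67.4%. Ramp1 gave 1.28 to 1.73% in the controls and at most 1.91% in any I-PpoI mouse. The 2 adrenomedullin partners thus took nearly all of the Ramp signal in every library, with I-PpoI mouse 3 and control mice 1 and 3 close together. The log2 ratio of Ramp3 to Ramp2 was 0.75 lower in the I-PpoI mice (exact permutation p = 0.30, also 0.30 adjusted over 5 ratios).

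Ramp2 over Calcrl was 0.645, 1.02 and 0.636 in control mice 1 to 3, and 3.91, 3.36 and 0.707 in I-PpoI mice 1 to 3. I-PpoI mice 1 and 2 stood well above the controls, and I-PpoI mouse 3 stood among them. The part of the strand difference in Ramp2 over Calcrl of I-PpoI mice 1 and 2 was not tested. The log2 difference of the ratio was 1.44 over all mice (exact permutation p = 0.20, adjusted 0.25) and -0.073 with I-PpoI mouse 3 alone. Calcrl over Cdh5, its ratio to the VE-cadherin gene, showed the same split: 0.379, 0.400 and 0.365 in control mice 1 to 3, then 0.0853, 0.139 and 0.378 in I-PpoI mice 1 to 3. Calcrl over Pecam1 was 0.485 to 0.541 in the controls and 0.540 in I-PpoI mouse 3.

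**Figure D4:**
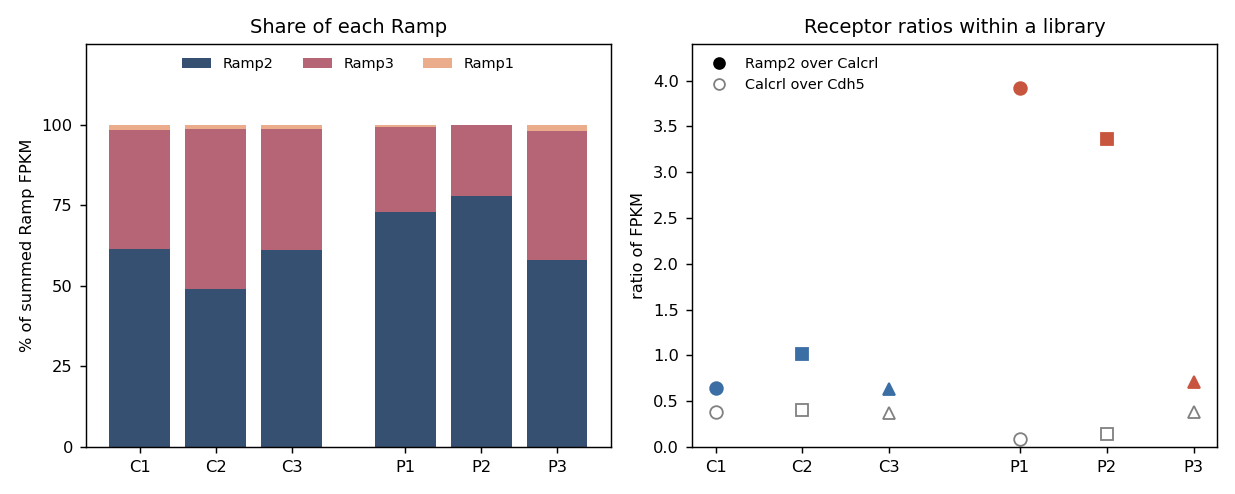
Left, the share of each Ramp in the summed Ramp FPKM of a library (bars to 100%); right, Ramp2 over Calcrl (filled points, blue for control and red for I-PpoI) and Calcrl over Cdh5 (open points). C1 to C3 are control mice 1 to 3 and P1 to P3 I-PpoI mice 1 to 3; Ramp2 over Calcrl is 3.91 and 3.36 in P1 and P2, and 0.707 in P3, within the control range.

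Of the 5 within-library ratios tested between members, Aplnr to Calcrl was the one in which I-PpoI mouse 3 left the control range. Its log2(FPKM + 1) ratio was -5.54, -4.82 and -4.95 in control mice 1 to 3 and -4.17, -3.33 and -4.09 in I-PpoI mice 1 to 3. The I-PpoI mice did not overlap the controls, with a difference of 1.24 (exact permutation p = 0.10, the smallest possible, and 0.25 adjusted). With a pseudocount of 0.1 the difference was -0.60, with Aplnr counts of 0 in 2 of the I-PpoI mice. Adm to Calcrl differed by 1.71 and Apln to Aplnr by 0.62 (both exact permutation p = 0.20, adjusted 0.25), and I-PpoI mouse 3 lay within the controls for both. Of the ratios not tested, Apln and Aplnr over Cdh5 also left the control range in I-PpoI mouse 3, at 0.0139 and 0.0159 against at most 0.0108 and 0.0105. Adm over Apln did so too, at 1.23 against 1.87 to 6.10. Cdh5 itself was at 149 FPKM in that mouse and at 266 to 328 in the controls. On the endothelial scale 68% of all tested genes lay above every control in that mouse. With Aplnr at 0 in I-PpoI mice 1 and 2, the Apln to Aplnr difference depends on the pseudocount and was 2.04 with 0.1.

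Beyond the 7 genes, the pathway was followed through 49 other genes, listed under 50 symbols. They were ligands, receptors and decoys, peptide-processing enzymes, G proteins and adenylyl cyclases, cyclic AMP effectors, and desensitisation proteins. All 49 were in the table, and 43 passed the filter. As deposited, 27 of the 43 (62.8%) had I-PpoI mice below all controls without overlap, beside 45.1% of all tested genes, and none had them above. At an unadjusted limma p under 0.05, 24 (beside 32.2% of all tested genes) were lower and 0 (beside 4.23%) higher, and after adjustment 0 of 43, as 0% of all genes, were called. The median log2 difference was -0.93, and 39 of 43 lay below 0, beside 71.6% of all tested genes. With endothelial scaling 14 of 43 lay below 0, beside 24.98% of all tested genes. Values of limma in the next paragraphs are for the 8 genes of smallest p and the most abundant gene of each role, and all had an adjusted p of 0.132 to 0.187.

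Among ligands, Calca, the gene of calcitonin and CGRP, was the most abundant at 41.4 FPKM ± 4.98 in the controls and 17.4 ± 5.99 in the I-PpoI mice (log2 difference -1.25, and 0.13 with endothelial scaling). Calca was thus higher in the control preparations than Adm. Scaled by endothelial markers, Calca was 40.1 to 42.5 FPKM in the controls and 42.7 in I-PpoI mouse 3. Apela, the other apelin receptor ligand, chosen after its values were seen, had 15.7, 25.6 and 30.0 FPKM in control mice 1 to 3 and 4.97, 8.32 and 15.9 in I-PpoI mice 1 to 3. Apela stood above Apln in all 6 libraries, and its groups overlapped by a narrow margin (log2 difference -1.29, and 0.05 with endothelial scaling). Ackr3, a receptor that takes up adrenomedullin without G-protein signalling, was also chosen after its values were seen. Its FPKM was 6.19 to 9.70 in the controls and 2.85 to 4.37 in the I-PpoI mice, a log2 difference of -0.96 that was 0.26 with endothelial scaling and 0.01 among strand-clear genes. Crcp, a CGRP receptor component, averaged 12.4 and 7.67 FPKM with overlapping groups, and its log2 difference of -0.67 was 0.66 with endothelial and 0.11 with median-of-ratios scaling.

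The cyclic AMP effectors had the lowest median of the roles as deposited: -1.53 over 13 genes, of which 10 were lower without overlap between the groups, beside 45.1% of all tested genes. Prkar2b, a regulatory subunit of protein kinase A, had the smallest p of the pathway at 11.5 FPKM ± 2.28 in the controls and 2.49 ± 0.981 in the I-PpoI mice (log2 difference -1.87, SE 0.35). Prkar2b kept a negative difference under all 4 other scalings, from -0.72 to -3.03, and scaled by endothelial markers it stood at 0.75 times its control mean in I-PpoI mouse 3, within the control range. Rapgef4, the cyclic AMP sensor Epac2, averaged 17.5 and 5.04 FPKM. Prkar1a, a further protein kinase A subunit, averaged 142 and 45.5 FPKM. Both were negative under the 3 scalings that could include them, and both have a gene close by on the opposite strand. In I-PpoI mouse 3 on the endothelial scale, Prkar1a stood at 1.25 times its control mean, above every control. Rapgef4 stood at 1.03 times, within the controls. On that scale 10 of the 13 cyclic AMP effectors lay above every control in this mouse, beside 68% of all tested genes.

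Of the enzymes that process the peptides, Pam, which amidates adrenomedullin and so makes it active, averaged 20.9 FPKM ± 1.54 in the controls and 7.24 ± 3.60 in the I-PpoI mice (log2 difference -1.51). Cpe, a carboxypeptidase of peptide maturation, averaged 25.2 and 14.9 FPKM (-0.72, and above 0 under 3 of the 4 other scalings, at most 0.65 with the endothelial one). Gnai2, the abundant Gi subunit of the kind Aplnr couples to, averaged 255 FPKM ± 21.8 and 114 ± 33.2 (-1.20, and 0.23 with endothelial scaling). Among desensitisation genes, Arrb1 (beta-arrestin 1) averaged 28.4 and 10.1 FPKM, Grk5 7.70 and 2.35, and Grk2, the most abundant receptor kinase, 44.1 and 23.4. The sign held under every scaling run for Pam, Arrb1 and Grk5, and turned for Grk2 (-0.90 as deposited, 0.50 with endothelial scaling and 0.23 among strand-clear genes). All of these scalings keep I-PpoI mice 1 and 2. In I-PpoI mouse 3 scaled by endothelial markers, Pam and Arrb1 stood above every control, at 1.27 and 1.29 times their control means. Grk5 stood within the controls at 1.19 times, and the median ratio of all genes was 1.41. Pam, Arrb1, Grk5 and Crcp have genes close by on the opposite strand, so their values in I-PpoI mice 1 and 2 may hold fragments of those genes.

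In I-PpoI mouse 3 scaled by endothelial markers, 33 of 43 pathway genes (76.7%) lay above every control, beside 68% of all tested genes, 9 lay within and 1 (Calcb, the beta-CGRP gene) lay below. All 6 peptide-processing genes lay above. The part of the proximal tubule markers in these values was likewise not tested.

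**Figure D5:**
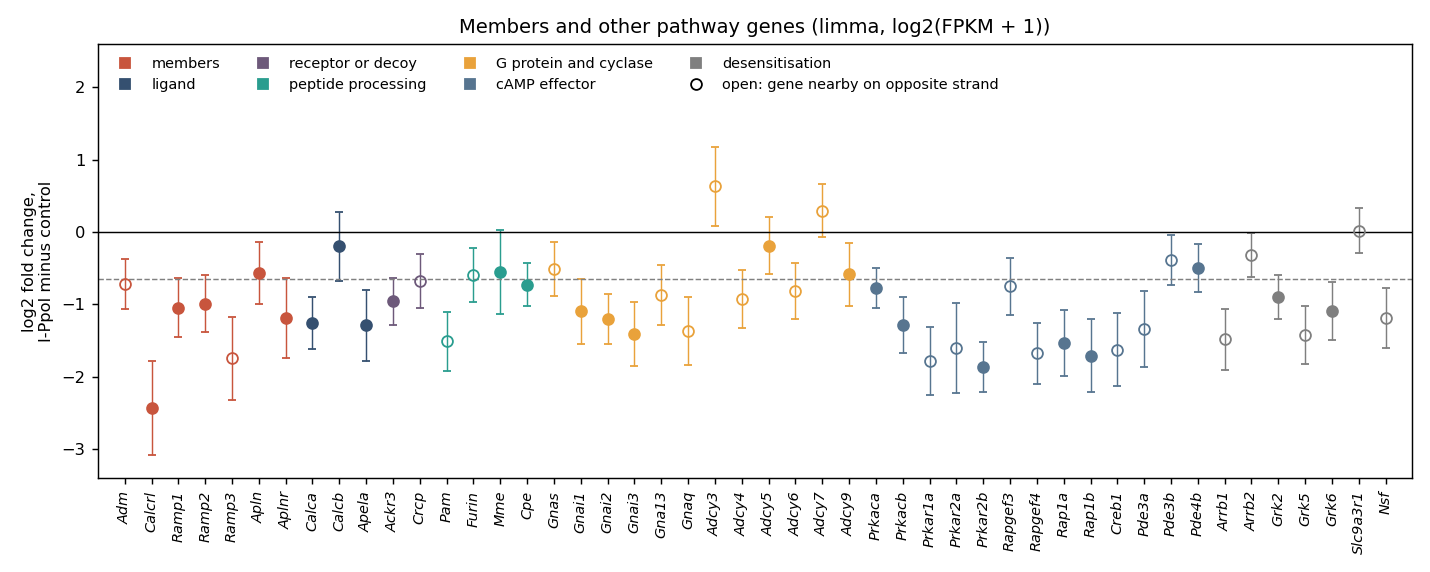
Log2 difference, I-PpoI minus control, on the log2(FPKM + 1) scale with its SE (limma, 3 mice a group) for the 7 members (first, in red) and 41 of the 43 other pathway genes tested, coloured by role; open circles have a gene within 5 kb on the opposite strand. The dashed line is the median of all tested genes, -0.65: most genes lie below 0 as deposited, while with endothelial scaling 14 of the 43 pathway genes and 24.98% of all tested genes lie below 0.

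Genes with the profile most like a member over the 6 libraries were ranked by the root mean square difference of centred log2(FPKM + 1) among 1171 strand-clear candidates. Nearest to Calcrl were Adgrl4 (0.0740), an adhesion receptor of endothelium, Rsad2 (0.0922), an antiviral enzyme, and Actr2 (0.140), a subunit of the actin-nucleating Arp2/3 complex. Nearest to Ramp2 were Bcl7b (0.0761), Npdc1 (0.0889) and Galnt18 (0.0956). Nearest to Ramp3 were Mfsd5 (0.118), Blmh (0.199) and Emcn (0.230), the last an endothelial sialomucin of the marker list. Nearest to Adm were Myl9 (0.0952), a smooth muscle myosin light chain, Pcp4l1 (0.154) and Sh2b1 (0.190). Adgrl4 had 170, 134 and 158 FPKM in control mice 1 to 3 and 23.5, 13.6 and 75.3 in I-PpoI mice 1 to 3. It was chosen by its likeness to Calcrl, so the order of libraries that both share adds nothing further. These likenesses are over 6 libraries that share the fragment-total and strand differences described above, and they are given as a description.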

How the data were processed

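RNA of CD31-sorted kidney endothelial cells was measured by paired-end sequencing for 100 cycles, per the labels' protocols. The authors deposited 1 table of FPKM per gene for 6 libraries; its columns name each mouse. Per the submitters' processing notes, the tool was DESeq2 1.28.13 and the builds mm10 and GRCm38. Which aligner, counter and strand option they chose is not given in the sources used here. Positions follow the authors' file, in which 54907 of 55487 genes had the same coordinates in GENCODE M21.

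The groups were those of the labels, 3 control and 3 I-PpoI mice. Limma 3.58.1 (R 4.3.3) was fitted to log2(FPKM + 1) for 14962 genes averaging 1 FPKM or more, with group as the only term, Benjamini-Hochberg adjustment over all of them and 0.05 as the threshold. Low genes change by more than this scale shows. Differences of single values were tested by exact two-sided permutation over the 6 mice, which cannot give p under 0.10. The rest was done in python 3.11.15 with pandas 2.3.3, numpy 2.4.6, matplotlib 3.10.9 and scipy 1.17.1. P-values are set against the spread between the libraries of a group, 1 per mouse, and each group has few of them. For limma this spread is shared in part across genes. In the I-PpoI group it includes the fragment-total and strand differences between mouse 3 and mice 1 and 2, so it is not spread between mice alone.

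FPKM multiplied by the exon length of GENCODE M21 gave whole fragments (within 0.05) for 99.2 to 99.4% of values under 1000 fragments. These gave the fragment totals of the libraries, 95% exact Poisson intervals and the limit of 3 fragments for a count of 0. Limma-voom was run on these fragments as an alternative and called 0 of the 7 genes and 0 of 14945 genes. Endothelial scaling divided each library by its median of 23 endothelial markers, relative to the controls. The alternatives were other scalings, pseudocounts of 0.1 and 0.5, dropping the filter or raising it to 5 FPKM, strand-clear genes, the replicate block, each library left out, and I-PpoI mice 1 and 2 left out.

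The genes, lists and tests were chosen with earlier results of these data known. The named genes are the 7 members, Pecam1 and Cdh5, the 8 pathway genes of smallest p because fewer than 5 passed the threshold, the most abundant pathway gene of each role, and the 3 genes nearest in profile to each member above 5 FPKM in the controls; exceptions are named where they occur. Adrbk1, an older symbol of Grk2, was the 1 listed symbol not matched, and Grk2 was itself on the list. The values of 2 pathway genes are not reported here; both count in the totals of the list. On simulated data over 13179 genes with library totals as deposited, 6% of the 2-fold and 65% of the 4-fold changes between I-PpoI and control were recovered by limma, beside 12 false calls. With every library at the highest total it recovered 38% and 94%. The simulation started from the control mean profile in every library, with the same dispersion for every gene. It held no strand or composition difference between libraries, so these rates are not those of the real libraries.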

Additional observations from a re-analysis of the deposited data

How the results depend on the processing

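No member passed the adjusted limma threshold in any alternative fit but those named next. After rescaling to a common total 2 did (Calcrl and Ramp3, beside 22.4% of genes lower), and leaving out each mouse gave 0 to 4. The pathway count was 18 after that rescaling, 2 with endothelial scaling without I-PpoI mice 1 and 2, an alternative added after seeing the data, and 0 to 27 with each mouse left out, the highest without I-PpoI mouse 3. With the replicate block the counts were 0 of 7 and 0 of 43, and 1 member and 19 pathway genes had an unadjusted p under 0.05. Same-numbered mice correlated at 0.09, 0.06 and -0.02 over all tested genes, where the third did not correlate best with its own number, and at 0.26, 0.20 and 0.19 over the 3654 strand-clear genes after scaling, where each did. The labels name no pairing, and the block changed no adjusted call.

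Among the members' alternative log2 differences, 13 changed sign, 6 newly passed the threshold with the same sign, and 101 did neither. With endothelial scaling they were 0.47 for Adm, 0.42 for Ramp2 and 0.22 for Apln. With that scaling and without I-PpoI mice 1 and 2 they were 0.13 for Adm, 0.23 for Calcrl, 0.39 for Ramp1, 0.15 for Ramp2, 0.094 for Ramp3, 1.11 for Apln and 0.99 for Aplnr. Among strand-clear genes Ramp2 was at 0.15 and Apln at 0.00055, and without I-PpoI mice 1 and 2 Apln was at 0.13. Relative to endothelial genes, without I-PpoI mice 1 and 2, Calcrl was at 0.25 and Ramp3 at 0.12, and the Ramp2 to Calcrl ratio at -0.073. On the same relative scale with a pseudocount of 0.1 Ramp1 was at -0.84, Aplnr at -1.65 and Aplnr to Calcrl at -0.60; with 0.5 Aplnr was at -0.26. With each mouse left out, relative Ramp3 ran from -0.53 to 0.015 and Aplnr from -0.26 to 0.90. The control level of Ramp2 would be 132 FPKM outside the exons shared with Vps25, if no fragment of those exons was counted for it. The cause of these shifts was not tested. Ramp1, Adm, Apln and Aplnr rest on 0 to 9 fragments in I-PpoI mice 1 and 2, and differences within the intervals of such counts were not detectable there.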
